A study of Homo sapiens with 6 samples.

Results

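In most Ewing sarcomas a chromosome rearrangement joins EWSR1, the gene of an RNA-binding protein, to FLI1, the gene of an ETS-family transcription factor. The fusion protein binds DNA that holds the ETS core GGAA, above all where this core is repeated, and the cells depend on further transcription factors that act beside it. The 7 genes described here, NKX2-2, BCL11B, SOX2, SOX6, KLF15, TCF4 and MYC, encode transcription factors, and they were chosen by name. Whether the cells depend on each of them was not tested. Each had 1 row in every deposited gene table, so 7 of the 26931 gene symbols listed were taken.

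TC32 is an established Ewing sarcoma cell line. Its cells received an siRNA against EWSR1 (siEWSR1), an siRNA against FLI1 (siFLI1) or a control siRNA (siNeg), and total RNA was taken 48 h after transfection. Each group had 2 libraries, 6 in all, from the same line in the same medium with serum, with no other treatment named. Nothing in the labels says that the 2 libraries of a group came from different cultures, so the p-values rest on a spread that may be technical. The target region of each siRNA within EWSR1 or FLI1 is not stated.

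Levels are given in FPKM, fragments scaled to transcript length and to the size of the library. Changes are log2 differences of FPKM + 0.5 with the standard error (SE) from 1 limma fit over all 6 libraries. A gene was called when its p-value, adjusted by Benjamini-Hochberg over the 13043 genes tested, was under 0.05. Single-gene permutation of 2 libraries against 2 cannot give a p below 0.333, so no such test was made. Over all tested genes the median log2 change was 0.01 with siEWSR1 and 0.04 with siFLI1, both against siNeg, and list medians below are read beside these. Of all tested genes, 33.2% were called higher and 31% lower with siEWSR1, and 35.7% higher and 29.6% lower with siFLI1. List counts below are read beside these shares. RNA came from whole cultures, so fewer cells that express a gene and less RNA of it per cell cannot be told apart.

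Each targeted gene was lower with its own siRNA. EWSR1 stood at 34.6 and 32.3 FPKM with siEWSR1, against 46.5 and 47.2 FPKM with siNeg, and it fell by 0.48 ± 0.06 on the log2 scale (limma, adjusted p = 0.000444). FLI1 stood at 8.98 and 8.56 FPKM with siFLI1, against 10.9 FPKM in both siNeg libraries, and it fell by 0.29 ± 0.06 (adjusted p = 0.00423). Neither gene was called with the siRNA against its partner. FLI1 held 10.4 and 10.6 FPKM with siEWSR1, a log2 change of -0.04 ± 0.06 from siNeg (adjusted p = 0.534). EWSR1 held 51.2 and 50.2 FPKM with siFLI1, a log2 change of 0.11 ± 0.06 (adjusted p = 0.11) that was called under quantile normalization (0.20, adjusted p = 0.0107). These gene-level values add reads of the normal gene to any reads of a fusion transcript. The Ewing sarcoma marker list, which includes NKX2-2 and FLI1 themselves, had 0 genes higher and 5 lower of 6 tested with either siRNA. Over all tested genes, 31% were called lower with siEWSR1 and 29.6% with siFLI1. The 5 were not the same genes: CD99 was among them with siEWSR1 alone, and FLI1, the siRNA target, with siFLI1 alone. NKX2-2, STEAP1, NR0B1 and CAV1 were lower with either siRNA. NR0B1, a nuclear receptor gene activated by the fusion, averaged 62.5 FPKM with siEWSR1 and 62.7 FPKM with siFLI1, against 204 and 234 FPKM in the siNeg libraries. The deposited bounds imply 15155321 to 16294220 fragments per library over the gene rows with a lower bound above 0, an estimate and not a count. The libraries had 12079 to 12741 genes at 1 FPKM or more.

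Markers of other cell types were also read, and some were near 0 while others were expressed. PTPRC (blood), VWF (endothelium), OLIG2 (glia) and EPCAM (epithelium) reached at most 0.0118, 0.00324, 0 and 0.129 FPKM in any library. In the same lists, KRT18 (epithelium) stood at 20.6 to 27.3 FPKM and EGFL7 (endothelium) at 16.5 to 26.6 FPKM over the 6 libraries. The fibroblast markers PDGFRB and THY1 stood at 11.8 to 21.2 FPKM and 14.9 to 25.3 FPKM. Some listed markers moved with the siRNAs. Of 3 fibroblast markers tested, 2 were higher and 1, THY1, lower with either siRNA, although the THY1 call with siEWSR1 was lost without siNeg replicate 1 (adjusted p = 0.0683). PDGFRA, a growth factor receptor that reached 1 FPKM in the siRNA libraries alone, averaged 9.17 FPKM with siEWSR1 and 9.79 FPKM with siFLI1, against 0.331 and 0.315 FPKM with siNeg. Without PDGFRA, 1 fibroblast marker was higher and 1 lower of 2 tested with either siRNA, at a median log2 change of 0.09 with each. The summed level of the 6 listed fibroblast markers was 45.8 to 47.8 FPKM with siEWSR1 and 48.0 to 49.0 FPKM with siFLI1, against 35.8 to 37.4 FPKM with siNeg. Of 4 epithelial markers tested, 3 were higher and 1 lower with either siRNA, but KRT14 and CLDN4 reached 1 FPKM in the siRNA libraries alone and ESRP1 with siNeg alone. The summed levels over the 8 listed were 27.3 to 29.3 FPKM with siEWSR1 and 31.3 to 31.8 FPKM with siFLI1, against 23.9 to 25.2 FPKM with siNeg. Most of this was KRT18, which was called higher with either siRNA. The 6 listed blood markers summed to 2.05 to 2.45 FPKM with siEWSR1 and 3.39 to 3.67 FPKM with siFLI1, against 0.292 to 0.381 FPKM with siNeg. Of these, CD34 held 1.44 and 1.93 FPKM with siEWSR1 and 3.17 and 3.02 FPKM with siFLI1, against 0.0317 and 0.0570 FPKM with siNeg. The 5 endothelial markers summed to 17.4 to 23.5 FPKM with siEWSR1 and 24.6 to 26.2 FPKM with siFLI1, against 25.0 to 26.9 FPKM with siNeg, most of it EGFL7. The 5 glial and neuronal markers summed to 2.40 to 2.57 FPKM with siEWSR1 and 2.47 to 2.74 FPKM with siFLI1, against 1.40 to 1.49 FPKM with siNeg. The part of these markers in the results below was not tested.

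The DNA just before the start of a gene is where many of its regulators bind. RefSeq promoter entries (build GRCh38.p14) were used for 6 of the 7 factors (MYC is not analysed here) and read over the 250 bases before each start. Searches covered both strands for GGAA, the ETS core bound by FLI1, for the tandem GGAAGGAA, which overlaps the first motif, and for CACGTG, the E-box of MYC and MAX and of many related factors. Over 35116 such windows, 92.7% held GGAA, with a median of 3 matches, while 3.06% held GGAAGGAA and 6.34% held CACGTG. The 5 windows below are printed because NKX2-2, BCL11B, SOX2 and KLF15 have few starts and few matches, so that each match can be seen. Capitals mark GGAA, its reverse complement TTCC, and CACGTG; all sequences run 5′ to 3′ on the strand of the gene.

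The BCL11B window (chr14:99272198-99272447, minus strand), the KLF15 window (chr3:126357409-126357658, minus strand), the SOX2 window (chr3:181711675-181711924, plus strand) and the 2 windows of NKX2-2 (chr20:21522690-21522939 and chr20:21512961-21513210, minus strand) read as follows.
BCL11B: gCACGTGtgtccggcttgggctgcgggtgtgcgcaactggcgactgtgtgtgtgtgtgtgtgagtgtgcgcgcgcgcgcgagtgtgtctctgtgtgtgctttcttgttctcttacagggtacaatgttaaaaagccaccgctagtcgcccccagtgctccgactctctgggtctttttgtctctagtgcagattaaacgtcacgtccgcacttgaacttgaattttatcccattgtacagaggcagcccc
KLF15: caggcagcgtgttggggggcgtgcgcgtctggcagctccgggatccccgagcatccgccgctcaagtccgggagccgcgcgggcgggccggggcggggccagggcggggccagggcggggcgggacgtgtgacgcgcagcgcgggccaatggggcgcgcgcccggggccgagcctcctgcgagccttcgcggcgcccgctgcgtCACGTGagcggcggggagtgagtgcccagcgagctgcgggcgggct
SOX2: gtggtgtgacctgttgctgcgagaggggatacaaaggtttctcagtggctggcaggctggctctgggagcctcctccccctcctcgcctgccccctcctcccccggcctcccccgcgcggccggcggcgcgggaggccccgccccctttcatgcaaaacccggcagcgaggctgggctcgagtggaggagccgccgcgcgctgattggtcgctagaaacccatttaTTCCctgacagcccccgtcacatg
NKX2-2 first start: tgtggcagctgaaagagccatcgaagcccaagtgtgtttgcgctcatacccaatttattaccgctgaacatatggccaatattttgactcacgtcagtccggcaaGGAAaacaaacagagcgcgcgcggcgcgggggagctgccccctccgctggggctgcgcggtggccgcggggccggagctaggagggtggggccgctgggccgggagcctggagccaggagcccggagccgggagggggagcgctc
NKX2-2 second start: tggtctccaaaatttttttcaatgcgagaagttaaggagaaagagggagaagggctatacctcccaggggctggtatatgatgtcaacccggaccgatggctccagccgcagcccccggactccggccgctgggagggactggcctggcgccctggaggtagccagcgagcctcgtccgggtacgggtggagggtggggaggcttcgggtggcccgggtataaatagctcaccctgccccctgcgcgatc

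The windows of BCL11B and KLF15 held no GGAA, as did 7.26% of all windows, and each held 1 CACGTG. That match begins 249 bases before the BCL11B start and 46 bases before the KLF15 start. SOX2 had 1 GGAA match, on the opposite strand 24 bases before its start. NKX2-2 had 1 match, 145 bases before one of its starts, and 0 before the other. The measured NKX2-2 row spans 3005 bp, less than the distance between these starts, so they cannot both lie within it. The windows, on another build, were not matched to the measured rows of any factor. SOX6 had 2 to 6 GGAA matches in each of its 5 windows, with GGAAGGAA in 1 of them. TCF4 had 3 to 6 in each of its 10 windows, with GGAAGGAA in 1 window and CACGTG in another. A match is a description of letters and not a binding site, the start used in TC32 cells cannot be told from gene-level values, and distant elements were not searched.

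With siNeg, the 7 factors spanned a wide range of levels. MYC was highest at a mean of 61.3 ± 0.579 FPKM (SD, n = 2), above 91.7% of the 12136 genes with at least 1 FPKM. NKX2-2 followed at 29.5 ± 2.93 FPKM and SOX2 at 25.3 ± 0.378 FPKM. BCL11B at 11.6 ± 0.0564 FPKM, SOX6 at 9.42 ± 0.130 FPKM and TCF4 at 6.39 ± 0.228 FPKM lay in the middle of that distribution. KLF15 was lowest at 1.82 ± 0.106 FPKM, above 8.43% of those genes. Neighbours in this order did not overlap between their libraries.

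**Figure D1:**
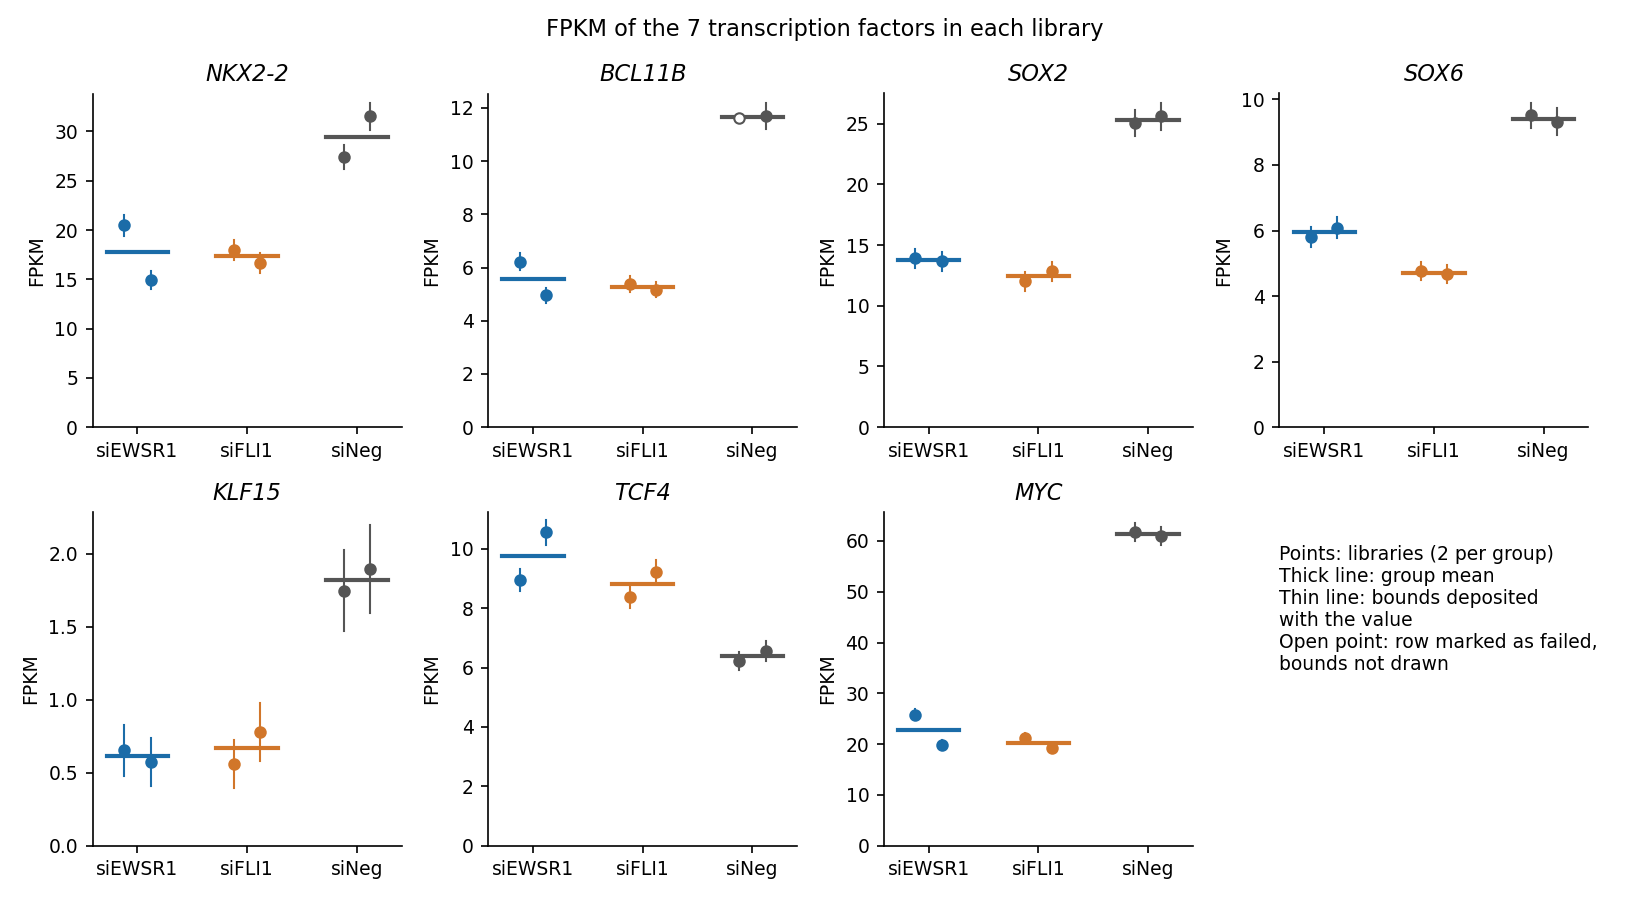
FPKM of the 7 transcription factors, 1 panel each with its own axis from 0, in the siEWSR1, siFLI1 and siNeg libraries. Points are libraries, thick lines are group means (2 libraries) and thin lines are the bounds deposited with each value, not drawn for the failed BCL11B row (open point). The siEWSR1 and siFLI1 points lie below the siNeg points in every panel except TCF4, where they lie above them.

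All 7 factors were called against siNeg with each siRNA. With siEWSR1, 6 factors were lower and 1, TCF4, was higher, where 31% of all tested genes were called lower and 33.2% higher. With siFLI1, 6 were again lower and TCF4 again higher, where 29.6% of all tested genes were called lower and 35.7% higher. Without KLF15, which reached 1 FPKM only in the siNeg libraries and so passed the filter through them alone, the counts were 5 lower and 1 higher with either siRNA. Every factor had non-overlapping groups in both comparisons, which also held for 83.3% of all tested genes with siEWSR1 and 84.7% with siFLI1. A call or a gap between groups was thus common here, and the size of each change says more. Both comparisons use the same siNeg libraries, so their values are not independent of each other.

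NKX2-2 is a homeobox repressor that patterns the ventral neural tube and is used as a diagnostic marker of Ewing sarcoma; it recruits TLE corepressors. It stood at 20.5 and 14.9 FPKM with siEWSR1 and 18.0 and 16.7 FPKM with siFLI1, against 27.4 and 31.5 FPKM with siNeg. All 4 siRNA libraries lay below both siNeg libraries, and the siEWSR1 libraries differed from each other more than the siFLI1 libraries did. NKX2-2 fell by 0.73 ± 0.15 on the log2 scale with siEWSR1 (limma, adjusted p = 0.00499) and by 0.75 ± 0.15 with siFLI1 (adjusted p = 0.00448). These are differences of 1.66-fold and 1.68-fold. NKX2-2 lies on chromosome 20, 21491660 to 21494664 (hg19).

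The relatives of NKX2-2 were mostly silent: 3 of 13 listed NKX homeobox genes passed the filter. Of these, 2 were lower and 0 higher with siEWSR1 (median log2 change -0.64), and 2 were lower and 1 higher with siFLI1 (median -0.53). With siFLI1, 0 were higher under quantile normalization or median-ratio scaling, or without siFLI1 replicate 1, siFLI1 replicate 2 or siNeg replicate 1. With siEWSR1, 1 was higher without siEWSR1 replicate 2. NKX6-1 and NKX2-4, named after their values were seen, were the 2 that fell; NKX6-1 stood at 2.02 and 1.77 FPKM with siEWSR1 and 2.23 and 2.15 FPKM with siFLI1, against 3.80 and 3.96 FPKM with siNeg. Of 6 TLE corepressors tested, 4 were higher and 0 lower with either siRNA. TLE1 reached 1 FPKM in the siRNA libraries alone; of the other 5, 3 were higher, at medians of 0.30 with siEWSR1 and 0.46 with siFLI1. TLE2 and TLE6 were not called, at log2 changes of -0.04 and -0.51 with siEWSR1 and -0.06 and -0.48 with siFLI1. Under quantile normalization, or without siEWSR1 replicate 1, 1 was lower with either siRNA, and without siEWSR1 replicate 2, 1 was lower with siFLI1. TLE3 rose by 0.63 ± 0.08 on the log2 scale with siEWSR1 and by 0.59 ± 0.08 with siFLI1. AES, the short corepressor of this family, rose by 0.30 with siEWSR1 (adjusted p = 0.0117) and by 0.46 with siFLI1 (adjusted p = 0.00189), but its siEWSR1 call was lost without siNeg replicate 1 (adjusted p = 0.0720). TLE1 and TLE4, also named after their values were seen, had the largest changes of the family; TLE1 stood at 2.97 and 3.03 FPKM with siEWSR1 and 2.54 and 3.14 FPKM with siFLI1, against 0.302 and 0.368 FPKM with siNeg.

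BCL11B is a zinc-finger repressor required for T-cell commitment and for neuron maturation, and it works with the NuRD chromatin remodelling complex. It stood at 6.22 and 4.95 FPKM with siEWSR1 and 5.39 and 5.17 FPKM with siFLI1, against 11.6 and 11.7 FPKM with siNeg. All 4 siRNA libraries lay well below both siNeg libraries. The row of siNeg replicate 1 is marked as failed in the authors' file, with bounds of 0 and 0.492 FPKM that do not contain its value. BCL11B fell by 1.00 ± 0.10 with siEWSR1 (limma, adjusted p = 0.000277) and by 1.07 ± 0.10 with siFLI1 (adjusted p = 0.000188). Without siNeg replicate 1 the falls were 1.01 (adjusted p = 0.00378) and 1.08 (adjusted p = 0.00275). BCL11B lies on chromosome 14, 99635625 to 99738050 (hg19).

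Genes for NuRD subunits were called in both directions, as were tested genes in general. Over all tested genes, 33.2% were higher and 31% lower with siEWSR1, and 35.7% higher and 29.6% lower with siFLI1. Of 13 tested in the list of BCL11A and NuRD subunits, 6 were higher and 3 lower with siEWSR1 (median 0.13), and 4 were higher and 3 lower with siFLI1 (median 0.04). These counts rest on single libraries: with siEWSR1, 3 were higher without siNeg replicate 1 and 1 was lower without siNeg replicate 2. With siFLI1, 2 were higher without siFLI1 replicate 2 or siNeg replicate 1, and 1 was lower without siFLI1 replicate 1, siFLI1 replicate 2 or siNeg replicate 2. CHD4, the remodelling ATPase, averaged 72.8 FPKM with siEWSR1 and 66.0 FPKM with siFLI1, against 51.6 and 50.05 FPKM with siNeg. It rose by 0.51 with siEWSR1 (adjusted p = 0.000245) and 0.37 with siFLI1 (adjusted p = 0.000877). MTA2 rose by 0.44 and 0.51 with siEWSR1 and siFLI1. HDAC2, a histone deacetylase, fell by 0.43 (adjusted p = 0.00144) and 0.31 (adjusted p = 0.00583) with the same siRNAs. GATAD2B was called higher with siEWSR1 (0.45, adjusted p = 0.00579) and had a log2 change of 0.24 with siFLI1 (adjusted p = 0.0620). BCL11A, the paralogue of BCL11B, did not pass the filter.

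SOX2 is an HMG-box factor that maintains pluripotent and neural stem cells. It stood at 13.9 and 13.7 FPKM with siEWSR1 and 12.02 and 12.8 FPKM with siFLI1, against 25.1 and 25.6 FPKM with siNeg. Its replicates were close in every group and all 4 siRNA libraries lay below both siNeg libraries. SOX2 fell by 0.86 ± 0.06 with siEWSR1 (limma, adjusted p = 5.36e-05) and by 1.00 ± 0.06 with siFLI1 (adjusted p = 2.43e-05). The SOX2 locus is chromosome 3, 181429712 to 181432223 (hg19), within the long noncoding gene SOX2-OT. SOX2-OT, below the filter, stood at 0.157 and 0.168 FPKM with siEWSR1 and 0.162 and 0.165 FPKM with siFLI1, against 0.477 and 0.483 FPKM with siNeg. The strand setting is not given, so reads of the 2 genes cannot be told apart where they overlap.

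Of 8 tested pluripotency and neural stem cell factors other than SOX2, 3 were higher and 4 lower with either siRNA, and 3 higher and 3 lower without LIN28B, which reached 1 FPKM with siNeg alone. The medians of the other 7 were -0.12 with siEWSR1 and -0.30 with siFLI1. With quantile normalization 1 was higher with siEWSR1. POU3F2, a POU factor of neural progenitors that partners SOX2, stood at 17.7 and 14.1 FPKM with siEWSR1 and 15.6 and 14.5 FPKM with siFLI1, against 53.1 and 56.8 FPKM with siNeg. It fell by 1.76 with siEWSR1 (adjusted p = 3.82e-05) and by 1.83 with siFLI1 (adjusted p = 2.65e-05). PAX6, a neural and eye factor, fell by 1.04 and 1.41 with siEWSR1 and siFLI1. KLF4, a pluripotency factor that also drives epithelial differentiation, moved opposite to SOX2: it stood at 15.2 and 15.1 FPKM with siEWSR1 and 18.2 and 18.9 FPKM with siFLI1, against 3.97 and 3.78 FPKM with siNeg.

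SOX6 belongs to the SoxD group, which lacks a transactivation domain and works with SOX5 and SOX9 in cartilage formation. It stood at 5.79 and 6.09 FPKM with siEWSR1 and 4.76 and 4.66 FPKM with siFLI1, against 9.51 and 9.33 FPKM with siNeg. The 3 groups did not overlap, with siFLI1 lowest. SOX6 fell by 0.62 ± 0.06 with siEWSR1 (limma, adjusted p = 0.000241) and by 0.93 ± 0.06 with siFLI1 (adjusted p = 4.24e-05). SOX6 spans chromosome 11, 15987995 to 16497935 (hg19). The microRNA gene MIR6073 lies inside it, listed at 473 FPKM in siFLI1 replicate 2 and 228 FPKM in siNeg replicate 2, and at 0 in the other libraries. MIR6073 was not called against siNeg with siEWSR1 or siFLI1 (limma, adjusted p = 0.330 and 0.91), with an SE of 3.71.

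The SOX family was split. Of 7 SOX genes tested besides SOX2 and SOX6, 4 were higher and 1 lower with siEWSR1 (median 0.41), and 4 were higher and 2 lower with siFLI1 (median 0.39). SOX9, the master factor of cartilage, stood at 6.64 and 7.05 FPKM with siEWSR1 and 5.60 and 6.004 FPKM with siFLI1, against 2.24 and 1.98 FPKM with siNeg. It rose by 1.49 with siEWSR1 (adjusted p = 2.66e-05) and 1.27 with siFLI1 (adjusted p = 3.87e-05). SOX5, the SoxD partner of SOX6, named after its values were seen, stood at 3.66 and 3.96 FPKM with siEWSR1 and 2.77 and 2.74 FPKM with siFLI1, against 1.19 and 1.34 FPKM with siNeg. SOX4, a SoxC factor, rose by 0.83 with siEWSR1 and 0.91 with siFLI1. SOX1, the close relative of SOX2 in the SoxB1 group, fell by 1.25 with siEWSR1 (adjusted p = 0.000342) and by 1.31 with siFLI1 (adjusted p = 0.000247).

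Few cartilage genes were expressed: 4 of 14 listed were tested. Of these, 4 were higher with siEWSR1 and 3 with siFLI1, and 0 were lower. COMP and COL11A2 reached 1 FPKM in the siRNA libraries alone, so the direction of their change follows partly from the filter. Of the other 2 tested, 2 were higher with siEWSR1 and 1 with siFLI1. COL9A3, a chain of the cartilage collagen IX, stood at 24.5 and 17.5 FPKM with siEWSR1 and 20.6 and 22.9 FPKM with siFLI1, against 6.85 and 8.79 FPKM with siNeg. It rose by 1.36 with siEWSR1 (adjusted p = 0.000747) and 1.43 with siFLI1 (adjusted p = 0.000561). COL11A1 was called with siEWSR1 at 0.20 (adjusted p = 0.0222), but not once siEWSR1 replicate 2 (adjusted p = 0.0733) or siNeg replicate 1 (adjusted p = 0.132) was left out.

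KLF15 is a Krüppel-like zinc-finger factor that glucocorticoids induce and that controls amino acid and lipid catabolism in muscle, liver and fat. It stood at 0.654 and 0.570 FPKM with siEWSR1 and 0.558 and 0.778 FPKM with siFLI1, against 1.75 and 1.90 FPKM with siNeg. All 4 siRNA libraries lay below 1 FPKM and both siNeg libraries above it. KLF15 fell by 1.06 ± 0.13 with siEWSR1 (limma, adjusted p = 0.000575) and by 1.00 ± 0.13 with siFLI1 (adjusted p = 0.0007). It passed the filter through the siNeg libraries alone, so its fall follows partly from that filter. These p-values are no separate support for the fall. The added 0.5 FPKM compresses such a low gene: the ratio of mean FPKM was 2.97-fold in siNeg over siEWSR1 and 2.73-fold in siNeg over siFLI1, against 2.09-fold and 1.99-fold on the scale of the fit. Its deposited bounds imply 46 to 159 fragments per library, the fewest of the 7, and lie 15.8% to 29.5% from its value. KLF15 lies on chromosome 3, 126061478 to 126076236 (hg19).

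Of 11 other KLF genes tested, 7 were higher and 2 lower with siEWSR1, and 6 were higher and 2 lower with siFLI1. Without KLF2, which reached 1 FPKM in the siRNA libraries alone, 6 and 5 were higher, at medians of 0.41 and 0.45. KLF4 rose by 1.84 with siEWSR1 (adjusted p = 4.56e-06) and by 2.13 with siFLI1 (adjusted p = 2.43e-06). KLF3, a repressor of the family, stood at 18.2 and 22.5 FPKM with siEWSR1 and 18.9 and 21.7 FPKM with siFLI1, against 8.999 and 8.53 FPKM with siNeg. KLF13 rose by 0.95 with siEWSR1 and 0.98 with siFLI1. The 2 that fell with both siRNAs were KLF7 and KLF9, named after their values were seen.

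Genes of the glucocorticoid response and of branched-chain amino acid catabolism, processes in which KLF15 acts, were called in shares no larger than over all tested genes. Of 22 tested, 6 were higher and 6 lower with siEWSR1, where 33.2% of all tested genes were higher and 31% lower. With siFLI1, 6 were higher and 4 lower, where 35.7% and 29.6% of all tested genes were. Without ZBTB16, which reached 1 FPKM with siNeg alone, 5 and 3 were lower, at medians of 0.08 with either siRNA. NR3C1, the glucocorticoid receptor, stood at 7.65 and 8.07 FPKM with siEWSR1 and 6.93 and 7.62 FPKM with siFLI1, against 3.74 and 3.26 FPKM with siNeg. BCAT1, which transaminates branched-chain amino acids, fell by 0.85 with siEWSR1 (adjusted p = 0.000649) and by 0.98 with siFLI1 (adjusted p = 0.000324). DUSP1, a MAP kinase phosphatase, rose by 0.86 and 0.91 with siEWSR1 and siFLI1. PRODH, which begins proline breakdown, rose by 0.83 with siEWSR1 and 1.60 with siFLI1, and the difference between the siRNAs was called (-0.78, adjusted p = 0.0294).

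TCF4 here is the bHLH E protein also called E2-2, not the Wnt effector TCF7L2. E proteins bind E-boxes as dimers, either together or with tissue-restricted bHLH partners, and ID proteins, which cannot bind DNA, hold them inactive. TCF4 stood at 8.95 and 10.6 FPKM with siEWSR1 and 8.37 and 9.23 FPKM with siFLI1, against 6.23 and 6.55 FPKM with siNeg. All 4 siRNA libraries lay above both siNeg libraries, and the siEWSR1 and siFLI1 ranges overlapped. TCF4 rose by 0.57 ± 0.09 with siEWSR1 (limma, adjusted p = 0.00214) and by 0.43 ± 0.09 with siFLI1 (adjusted p = 0.00687). TCF4 spans chromosome 18, 52889562 to 53303224 (hg19); MIR4529 and TCF4-AS1, which overlap it, reached at most 0.0450 FPKM.

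Of the 6 other E proteins and ID inhibitors, 4 were higher and 1 lower with either siRNA. ID4, not called, reached 1 FPKM in siRNA libraries alone, and the medians of the other 5 were 0.26 with siEWSR1 and 0.30 with siFLI1. Without siNeg replicate 1, 2 were higher with either siRNA, and without siFLI1 replicate 2, 2 were higher with siFLI1. The E proteins TCF3 and TCF12, named after their values were seen, were among the 4. TCF3 had a log2 change of 0.26 with siEWSR1 (limma, adjusted p = 0.0304) and 0.30 with siFLI1 (adjusted p = 0.0179). TCF12 had 0.25 with siEWSR1 (adjusted p = 0.0145) and 0.24 with siFLI1 (adjusted p = 0.0161). The ID genes split widely. ID3 stood at 220.1 and 199.95 FPKM with siEWSR1 and 221 and 239 FPKM with siFLI1, against 36.1 FPKM in both siNeg libraries; it rose by 2.52 (adjusted p = 2.77e-06) and 2.65 (adjusted p = 1.96e-06). ID2 stood at 135 and 102 FPKM with siEWSR1 and 119 and 111 FPKM with siFLI1, against 271 and 254 FPKM with siNeg; it fell by 1.15 (adjusted p = 0.000356) and 1.18 (adjusted p = 0.000289). ID1 rose by 0.89 with siEWSR1 and 1.10 with siFLI1.

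Of 26 listed tissue-restricted bHLH partners, 6 were tested, with 4 higher and 0 lower with either siRNA. HAND1 and ATOH8, 2 of these 4, reached 1 FPKM in the siRNA libraries alone; of the other 4 tested, 2 were higher, at medians of 0.004 with siEWSR1 and 0.28 with siFLI1. With siEWSR1, 1 was lower with quantile normalization and without siEWSR1 replicate 1 or siNeg replicate 1. TWIST2, a mesenchymal factor, rose by 0.85 with siFLI1 (adjusted p = 0.00278); with siEWSR1 its log2 change was 0.50 (adjusted p = 0.0251) and was not called without siEWSR1 replicate 1, siNeg replicate 1 or siNeg replicate 2 (adjusted p = 0.0636, 0.119 and 0.0615). MSC, a repressor of the same class, rose by 0.55 with siFLI1 (adjusted p = 0.000745); with siEWSR1 it was at 0.24 (adjusted p = 0.0243), lost without siEWSR1 replicate 1, siNeg replicate 1 or siNeg replicate 2 (adjusted p = 0.0961, 0.131 and 0.0522). HAND1, a heart and trophoblast factor named after its values were seen, stood at 2.50 and 2.82 FPKM with siEWSR1 and 2.00 and 1.98 FPKM with siFLI1, against 0.0166 and 0.0796 FPKM with siNeg.

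MYC is a bHLH factor that binds E-boxes with MAX and drives ribosome production, metabolism and growth. It stood at 25.8 and 19.8 FPKM with siEWSR1 and 21.2 and 19.2 FPKM with siFLI1, against 61.7 and 60.9 FPKM with siNeg. All 4 siRNA libraries lay far below both siNeg libraries, and the siEWSR1 and siFLI1 ranges overlapped. MYC fell by 1.42 ± 0.12 with siEWSR1 (limma, adjusted p = 0.000131) and by 1.58 ± 0.12 with siFLI1 (adjusted p = 7.63e-05), a 2.68-fold and a 2.99-fold difference. On this scale 1.60% of tested genes had a lower log2 change with siEWSR1 and 1.13% with siFLI1. MYC lies on chromosome 8, 128748315 to 128753680 (hg19).

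The MYC network changed in several members. Of 13 tested genes of the MYC, MAX and MXD network other than MYC, 8 were higher and 3 lower with siEWSR1, and 5 were higher and 3 lower with siFLI1. Without MXD1 and MLXIPL, which reached 1 FPKM in the siRNA libraries alone, 6 and 4 were higher, at medians of 0.24 and 0.14. MXD4, a MAX partner that opposes MYC at E-boxes, stood at 11.5 and 11.6 FPKM with siEWSR1 and 14.7 and 15.7 FPKM with siFLI1, against 2.48 and 2.42 FPKM with siNeg. It rose by 2.03 with siEWSR1 (adjusted p = 4.40e-06) and 2.41 with siFLI1 (adjusted p = 1.96e-06), and was lower with siEWSR1 than with siFLI1 (-0.38, adjusted p = 0.0335). MXD3, of the same class, fell by 1.29 (adjusted p = 0.00109) and 1.26 (adjusted p = 0.00114) with siEWSR1 and siFLI1. MLXIP, a nutrient-sensing partner of MLX, rose by 1.07 and 0.92. MYCN, the paralogue of MYC, named after its values were seen, stood at 1.85 and 1.96 FPKM with siEWSR1 and 1.33 and 0.947 FPKM with siFLI1, against 3.43 and 3.51 FPKM with siNeg.

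The MYC-activated growth and ribosome biogenesis list had calls in both directions. Of 34 genes tested, 14 were lower and 6 higher with siEWSR1, where 31% of all tested genes were lower and 33.2% higher. With siFLI1, 15 were lower and 7 higher, where 29.6% and 35.7% of all tested genes were. Without TERT, which reached 1 FPKM with siNeg alone, 13 and 14 were lower, at medians of -0.08 and -0.10. With quantile normalization, 11 were higher with siEWSR1. LDHA, lactate dehydrogenase, stood at 337 and 198 FPKM with siEWSR1 and 349.5 and 275 FPKM with siFLI1, against 619.7 and 638 FPKM with siNeg. It fell by 1.28 with siEWSR1 (adjusted p = 0.00361) and fell by 1.02 with siFLI1 (adjusted p = 0.00924), a call not made without siFLI1 replicate 2 (adjusted p = 0.0639). FBL, the methyltransferase of ribosomal RNA, fell by 0.69 and 0.68, and WDR12, a ribosome assembly factor, by 0.78 and 0.67 with siEWSR1 and siFLI1. TFRC, the transferrin receptor, rose by 0.80 with siEWSR1 (adjusted p = 8.39e-05) and by 0.68 with siFLI1 (adjusted p = 0.000143).

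**Figure D2:**
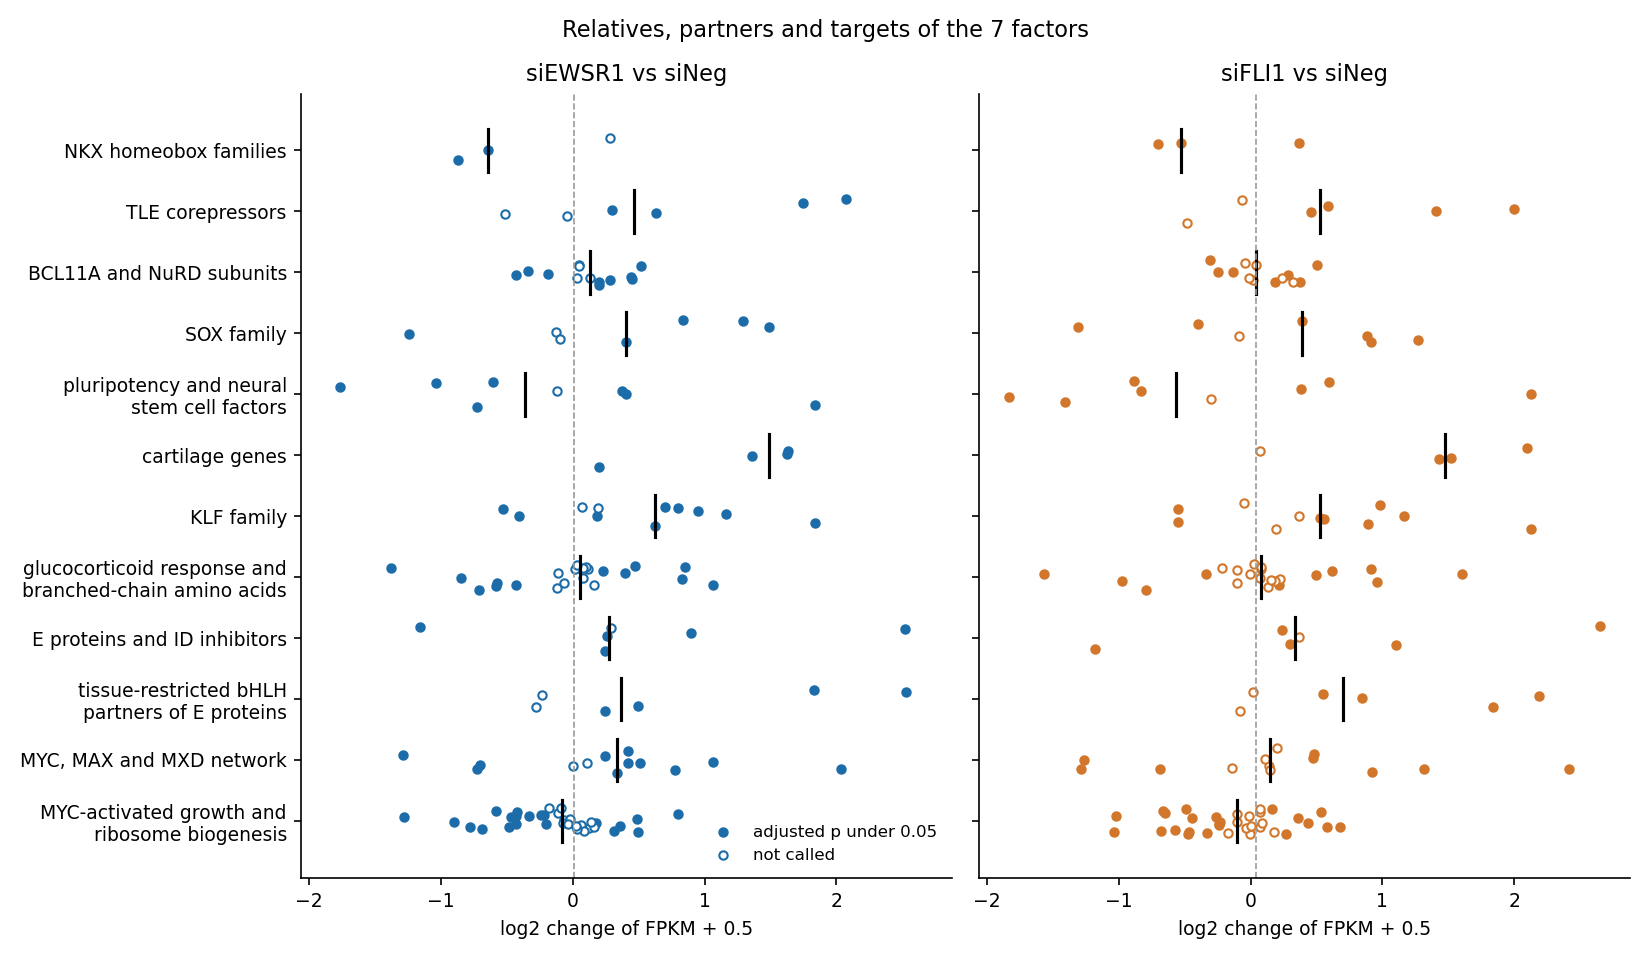
Log2 change of FPKM + 0.5 of each tested gene in 12 lists of relatives, partners and targets of the 7 factors, for siEWSR1 against siNeg (left) and siFLI1 against siNeg (right). Filled points were called at an adjusted p under 0.05, black bars are list medians and the dashed line is the median of all tested genes. The SOX, KLF, ID and MXD genes spread to both sides of the dashed line. COMP, COL11A2, TLE1, HAND1, ATOH8, KLF2, ID4, MXD1 and MLXIPL passed the filter through the siRNA libraries alone. LIN28B, ZBTB16 and TERT passed it through the siNeg libraries alone.

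The order of the changes depends on the scale for KLF15 and MYC. On the scale of the fit MYC had the largest fall with either siRNA, but under quantile normalization KLF15 fell by 1.54 and MYC by 1.28 with siEWSR1, and KLF15 by 1.53 and MYC by 1.49 with siFLI1. By mean FPKM the siEWSR1 difference was 2.97-fold for KLF15 and 2.69-fold for MYC, and the siFLI1 difference 2.73-fold and 3.03-fold. On the scale of the fit, called and at least 2-fold lower were MYC, KLF15 and BCL11B with siEWSR1, where 4.59% of all tested genes were, and MYC, BCL11B and SOX2 with siFLI1, where 4.59% were. SOX2 with siFLI1 (2.00-fold) and BCL11B with siEWSR1 (2.01-fold) lay just inside that fold, and KLF15 with siFLI1 (1.99-fold) just outside it. For KLF15 the added 0.5 FPKM decides its side. BCL11B also changed sides with a pseudocount of 1, at a log2 change of -0.95 with siEWSR1. Over all alternatives, SOX2 with siFLI1 ranged from -1.05 to -0.96, so it too could fall on either side. Without KLF15, the counts at that fold were 2 with siEWSR1 and 3 with siFLI1. The share of tested genes with a lower log2 change was 4.62% for BCL11B, 3.96% for KLF15, 6.67% for SOX2, 8.96% for NKX2-2 and 11.8% for SOX6 with siEWSR1. With siFLI1 these shares were 3.94%, 4.75%, 4.70%, 8.49% and 5.51% for the same genes in the same order. TCF4 lay above 83.3% of tested genes with siEWSR1 and 75.3% with siFLI1.

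**Figure D3:**
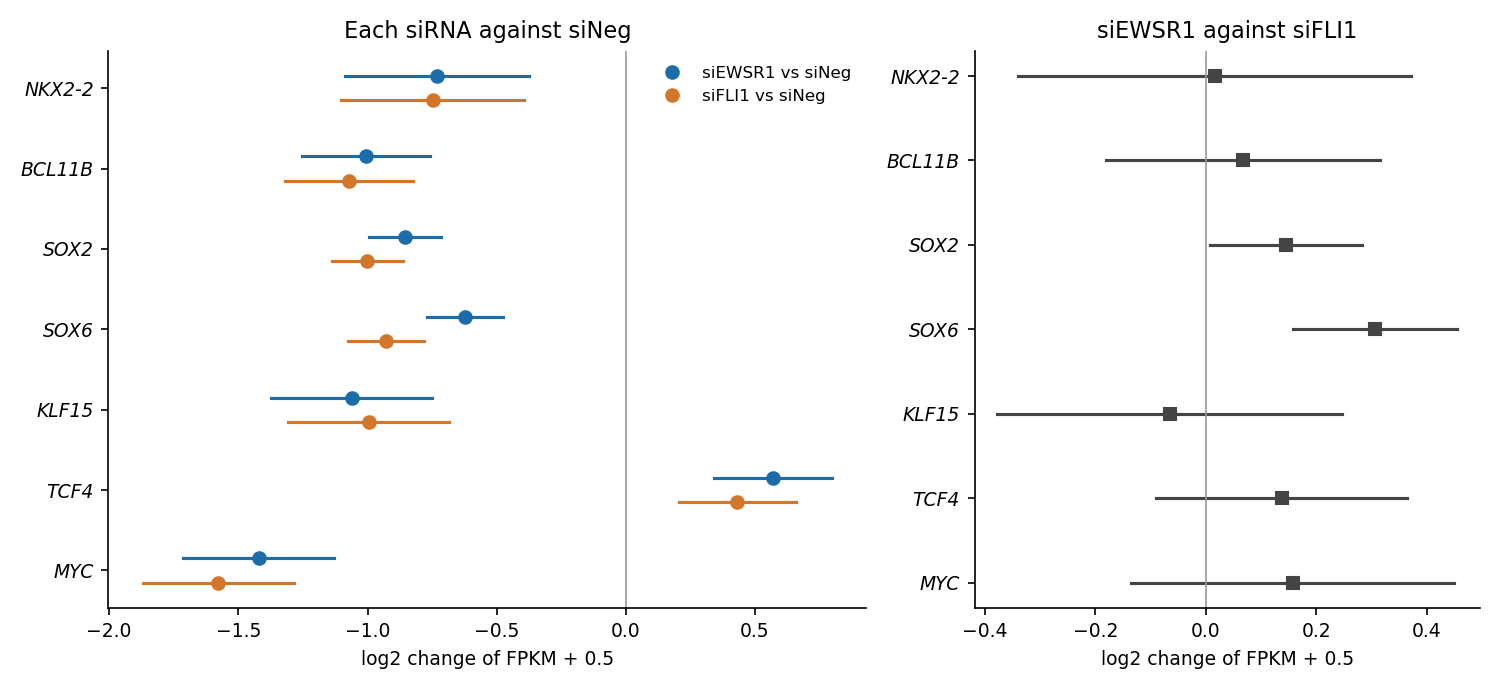
Log2 change of FPKM + 0.5 of the 7 factors with 95% intervals from the limma fit. On the left, each siRNA against siNeg: 6 factors lie below 0 and TCF4 above it. On the right, siEWSR1 against siFLI1: the intervals of SOX6 and SOX2 lie above 0 and those of the other factors include it.

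Between the siRNAs, 0 of 7 were called higher or lower with siEWSR1 than with siFLI1 by limma, where 0.79% of all tested genes were called higher and 3.07% lower. At an unadjusted p under 0.05, 2 were higher with siEWSR1, where 7.35% of all tested genes were. SOX6 was higher with siEWSR1 by 0.31 ± 0.06 (95% interval 0.16 to 0.45), with an adjusted p of 0.0506 and no overlap between the groups. Its call turned on the settings: it passed at 0.28 with a pseudocount of 1 (adjusted p = 0.0494), at 0.35 with quantile normalization (0.0447), at 0.34 with median-ratio scaling (0.0476) and at 0.31 with a robust variance trend (0.0418). SOX2 was higher with siEWSR1 by 0.15 ± 0.06 (adjusted p = 0.194), also with no overlap between the groups, which 20.1% of all tested genes showed in that direction. For the other 5 the groups overlapped. Their intervals were -0.34 to 0.37 for NKX2-2, -0.18 to 0.32 for BCL11B, -0.38 to 0.25 for KLF15, -0.09 to 0.36 for TCF4 and -0.13 to 0.45 for MYC. Each includes 0, and differences within its own limits remain possible.

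The profiles of the 7 factors over the 6 libraries were compared by the root mean square (RMS) difference of their log2 values, each centred on its siNeg mean. Among the 6 factors other than KLF15, BCL11B and SOX2 were closest (RMS 0.132), followed by SOX2 and SOX6 (0.148) and by NKX2-2 and SOX6 (0.203), and TCF4 and MYC were farthest apart (1.64). With 0.1 FPKM added in place of 0.5, SOX2 and SOX6 were closest (0.136), ahead of BCL11B and SOX2 (0.155). The profile of KLF15 depends on the amount added: its RMS from BCL11B was 0.125 with 0.5 FPKM added and 0.289 with 0.1 FPKM added.

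Among all tested genes, those most similar to each factor by the same measure included genes with very different levels. CDC20, which activates the anaphase-promoting complex, was closest to BCL11B (RMS 0.0194), followed by GTSE1 (0.0361). CDC20 stood at 62.6 and 52.4 FPKM with siEWSR1 and 55.4 and 54.6 FPKM with siFLI1, against 117 and 115 FPKM with siNeg. POLD1, a subunit of DNA polymerase delta, and CHTF18, a clamp loader subunit, were closest to NKX2-2 (0.0431 and 0.0434), with the same gap between the siEWSR1 libraries: POLD1 stood at 15.1 FPKM in replicate 1 and 11.1 FPKM in replicate 2. The CHTF18 calls were lost without siNeg replicate 2 with either siRNA (adjusted p = 0.0629 and 0.0711) and without siFLI1 replicate 2 with siFLI1 (0.0729).

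ANO6, a lipid scramblase, and CEP135, a centriole protein, were closest to SOX2 (0.0276 and 0.0381). ACVR2B, an activin receptor, was closest to SOX6 (0.0224), with a siEWSR1 to siFLI1 difference of 0.31 like that of SOX6, and CCDC34 came after it (0.0604). FAM19A2 and DCK, deoxycytidine kinase, were closest to KLF15 (0.0523 and 0.0621) with 0.5 FPKM added, an amount that compresses its profile. PKD2, a cation channel of the primary cilium, and ZFHX4, a zinc-finger homeobox factor, were closest to TCF4 (0.0274 and 0.0365). SMAP2, an ARF GTPase-activating protein, and RACGAP1, a cytokinesis regulator, were closest to MYC (0.0455 and 0.0509). The measure is a description with no test.

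**Figure D4:**
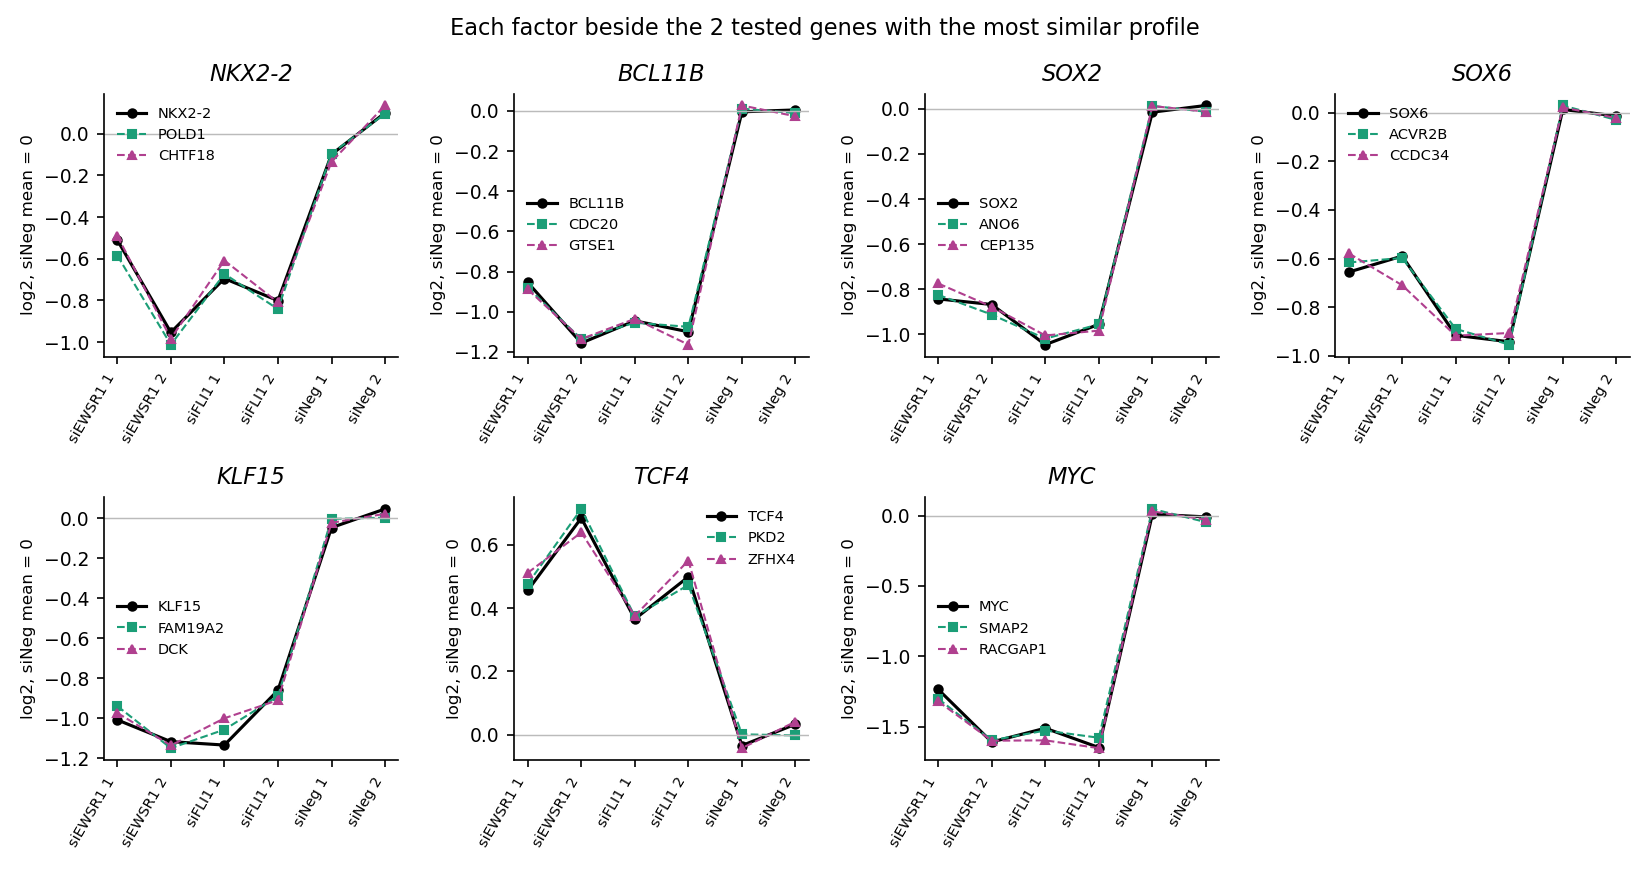
Centred log2 profiles (siNeg mean set to 0) of each factor and of its 2 most similar tested genes over the 6 libraries, siEWSR1, siFLI1 and siNeg from left to right, 1 panel per factor with its own axis. In each panel the 3 lines run close together; the RMS difference from the factor lies between 0.0194 and 0.0621.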

How the data were processed

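The authors deposited gene-level FPKM values with lower and upper bounds for each library. Per the submitters' processing notes, TopHat2 2.0.13, Cufflinks, Cuffdiff and build hg19 were used. Annotation, strand setting and handling of multimapping reads were not given in the sources used here. Since FPKM is a share of each library, very abundant RNAs can shift the rest.

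Rows were joined by gene and locus, and rows of the same symbol were summed (380 symbols, none of the 7 factors). Starts were converted to count from 1. Reading the distance to a bound as 2 counting errors gave 15155321 to 16294220 fragments per library, summed over rows not failed and with a lower bound above 0. Only 26.2% to 30.0% of low genes came out whole within 0.01, so no count test could be run. The implied fragments behind the factors were 968 to 5198 per library, except 46 to 159 for KLF15. The failed BCL11B row is left out of these.

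Genes at 1 FPKM or more in at least 2 libraries (13043) were fitted with limma 3.58.1 (R 4.3.3) on log2 values after adding 0.5 FPKM, with a variance trend and all groups in 1 fit (3 residual and 3.39 prior degrees of freedom). All tests were two-sided. The fit was tested on simulated data. Figures were drawn with matplotlib 3.10.9 in Python 3.11.15.

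The 7 factors and all lists were chosen with earlier results of these data known. Genes named from a list were up to 3 called genes per list and siRNA with the largest changes and a mean of at least 5 FPKM in the higher group; the 2 most similar profiles per factor were also named. Other names were chosen after their values were seen, which is stated beside only some of them. Replicate numbers are shared across groups in the labels, which do not say that they mark a shared batch. Alternatives were other pseudocounts, filters, scalings and variance models, single left-out libraries and a replicate block; a crossed block, and list counts without genes that reached 1 FPKM in only 1 of the groups compared, were added after seeing the data.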

Additional observations from a re-analysis of the deposited data

How the results depend on the processing

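Against siNeg, all 7 factors kept their direction and their call under every alternative run for them with either siRNA. Leaving out 1 library at a time moved the log2 change of NKX2-2 between -0.95 and -0.51 with siEWSR1 and that of MYC between -1.61 and -1.23, and put the highest adjusted p among the factors at 0.0481, for TCF4 with siFLI1. KLF15, which passed the main filter through the siNeg libraries alone, has no value under the filter of a mean of at least 5 FPKM. For siEWSR1 against siFLI1, 1 factor (SOX6) was called higher with a pseudocount of 1, quantile normalization, median-ratio scaling and a robust variance trend, with log2 differences of 0.28, 0.35, 0.34 and 0.31. The cause was not tested.

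With a mean of at least 5 FPKM, where fewer genes were tested, 2518 genes were called higher with siEWSR1 and 2787 with siFLI1. The count of all genes called between the siRNAs was unstable. Those higher with siEWSR1 than with siFLI1 numbered 15 with no filter on low values, 209 with quantile normalization, 159 with median-ratio scaling, 185 with the robust trend and 12 with the 2 groups fitted alone, and 3 to 85 with a library left out. Those lower numbered 73 with no filter, 640 with the robust trend, 99 with the 2 groups alone and 2 to 508 with a library left out. The cause was not tested. No scaling moved the median of all genes by more than 0.1 on the log2 scale.

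Deviations of same-numbered libraries correlated at 0.0689 for siEWSR1 and siFLI1, -0.137 for siEWSR1 and siNeg and -0.053 for siFLI1 and siNeg. With 2 libraries per group, such values cannot show whether the replicate numbers mark a shared batch. With a replicate block, 57 genes were higher and 262 lower with siEWSR1 than with siFLI1, and no call of a factor changed. With the numbers crossed between siEWSR1 and siNeg, 4295 genes were higher and 4035 lower.

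FPKM sums all transcripts of a gene, so isoforms cannot be told apart, and changes of total RNA per cell would not show. Depth limits KLF15 most.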
